A study of Mus musculus with 16 samples.

Results

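Pyroptosis and necroptosis are lytic forms of programmed cell death, and 8 genes that carry them out or hold them back were read from a table of 13085 genes: Casp1, Casp4, Gsdmd, Zbp1, Ripk1, Ripk3, Mlkl and Casp8. They were taken by symbol, and all 8 were listed in all 16 libraries and passed the filter on low values. Monocytes of NFAM1+/+ and NFAM1-/- mice of the strain C57BL/6 had been left without stimulus, or primed with IFN-γ and given CD40L in a multimeric form (MegaCD40L, 1 ug/mL), and their RNA was sequenced 6 or 24 h later. The mutant mice lack exons 2 and 3 of Nfam1, a receptor with an ITAM motif, after cutting by Cas9 in zygotes of C57BL/6NTac, a deletion not limited to any cell type, and both genotypes came from crosses of heterozygotes. Each of the 4 combinations of stimulus and time holds 4 libraries. At 6 h they are 2 libraries of each genotype. Of the 8 libraries at 24 h, 4 (44, 46, 56 and 58) carry one genotype in their title and the other in their genotype tag, so stimulus and time were compared over all 4 libraries irrespective of genotype. The labels name the cells PBL monocytes and the methods bone marrow monocytes, and the cells came from 4 NFAM1+/+ and 6 NFAM1-/- mice, fewer mice than libraries, with no map from mice to libraries. Libraries may therefore share a mouse, and p-values measure the spread between these libraries.

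In pyroptosis, caspase-1, switched on in inflammasomes, and caspase-11, the product of mouse Casp4 that binds bacterial lipopolysaccharide in the cytosol, cut gasdermin D, whose free end opens pores in the plasma membrane. In necroptosis, RIPK3 phosphorylates the pseudokinase MLKL, which then breaches the membrane, and RIPK3 is engaged either by RIPK1 below death receptors or by ZBP1, a sensor of Z-form nucleic acids. Caspase-8 sits between the pathways: it starts apoptosis and cuts RIPK1 and RIPK3, which keeps necroptosis in check. Interferons are known to raise several of these genes in myeloid cells.

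Levels are given as CPM, that is, read numbers corrected for the scaled size of each library, computed from the deposited log2 values. Each library had between 48295939 and 88514341 reads over the genes of the table, and the member with the fewest reads in any library, Mlkl, had 887. All 10 monocyte markers examined were listed, and at 6 h their summed level was 23135 to 25335 CPM without stimulus and 9209 to 11111 CPM with it. Without stimulus most of that sum was Lyz2, and the list moved both ways: 7 markers were lower with stimulus without overlap, and Ly6c2 (345 to 503 against 2199.7 to 2505 CPM), Fcgr1 (28.0 to 35.9 against 620 to 760 CPM) and Spi1 (618 to 730 against 887 to 960 CPM) were higher. The summed level of 10 neutrophil markers was 72.9 to 361 CPM at 6 h, 544 to 942 CPM in unstimulated libraries at 24 h and 124 to 212 CPM in stimulated libraries at 24 h. Of the B cell markers 2 of 5 and of the T and NK cell markers 2 of 8 were listed, with summed levels of up to 17.4 and 6.81 CPM, and the defining genes Ms4a1, Cd3e and Cd3d are not listed in the table used here. The listed erythroid markers summed to up to 37.1 CPM. Those of eosinophils, mast cells and basophils summed to 10.5 to 49.6 CPM without and 13.1 to 83.5 CPM with stimulus at 6 h. At 24 h these were 31.7 to 93.5 CPM without and 7.42 to 17.5 CPM with stimulus. Nfam1 itself was 408 to 432 CPM in the NFAM1+/+ and 299 to 321 CPM in the NFAM1-/- libraries without stimulus at 6 h, and overlapped between genotypes with stimulus (129 to 133 and 127 to 135 CPM). At 24 h Nfam1 was 441, 463, 495 and 391 CPM in libraries 43 to 46 without stimulus. With stimulus it was 201, 271, 252 and 223 CPM in libraries 55 to 58. Grouped by title, NFAM1+/+ libraries lay above NFAM1-/- libraries with and without stimulus, and grouped by tag they overlapped. Which label is right was not tested. The table holds 1 value per gene, so the deleted exons cannot be read on their own.

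All 8 genes were higher with IFN-γ plus CD40L at 6 h. Their summed level was 516 to 558 CPM without stimulus and 4626 to 4947 CPM with it. All 8 were called higher, as were 19.0% of the 12782 genes tested. A call needed a 2-fold difference or more together with an adjusted p (Benjamini-Hochberg, limma) below 0.05. The log2 differences ran from 1.14 for Ripk3 to 7.28 for Zbp1, with a median of 2.28 against -0.13 over all genes. Stimulated and unstimulated libraries did not overlap for any of the 8 at either time, and for 71.9% of all genes at 6 h and 68.9% at 24 h. At 24 h 6 of 8 were called higher, against 14.6% of all genes, and the other two, Casp8 and Ripk1, were higher by less than 2-fold. The median of the 8 at 24 h was 2.34 against 0.01 over all genes. In bulk RNA, fewer cells of a type and less RNA per cell cannot be told apart, and monocyte markers moved with the stimulus, 7 of 10 down and 3 up at 6 h; their part in these differences was not tested.

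**Figure D1:**
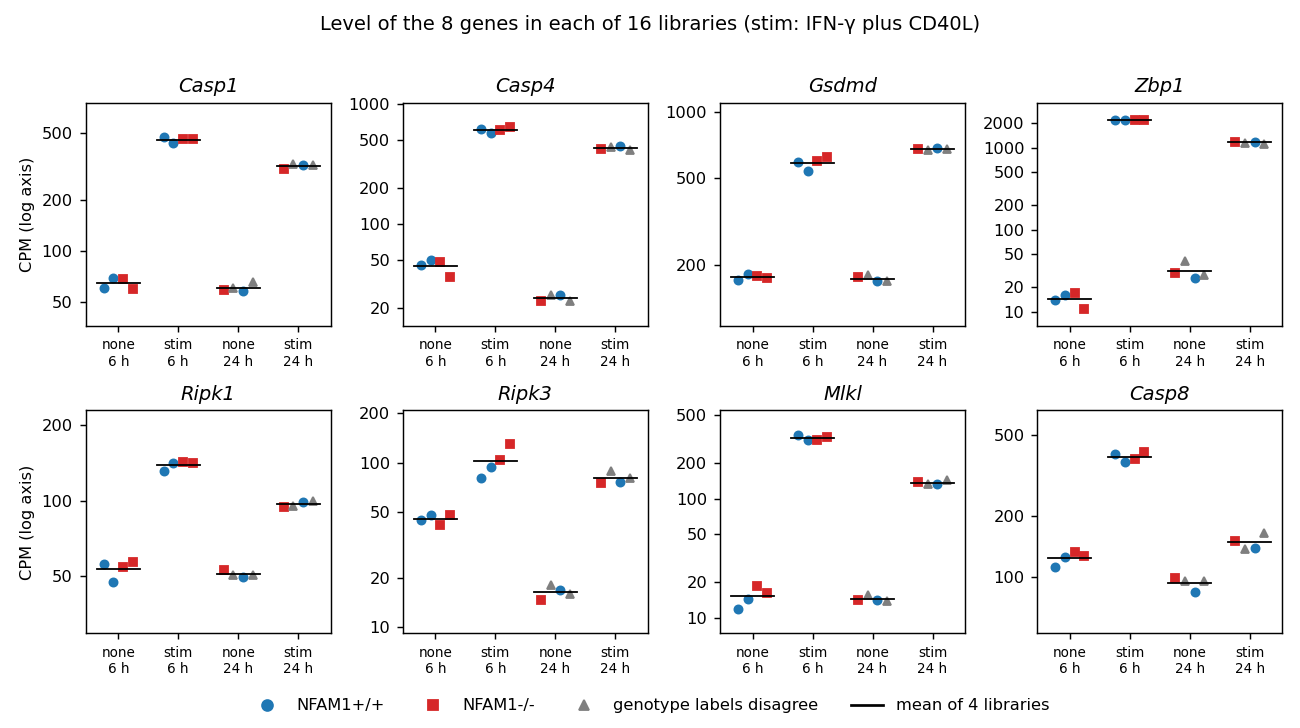
Level of each gene in CPM (log axis) in each of the 16 libraries, by stimulus and time; circles are NFAM1+/+, squares NFAM1-/-, triangles libraries whose genotype labels disagree, and lines the mean of 4 libraries. In all 8 panels the stimulated libraries of a time lie above the unstimulated ones of that time, and the genotypes lie close together but for Ripk3 with stimulus (80.6 to 130.1 CPM) and Mlkl without it (11.8 to 18.3 CPM) at 6 h.

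Values are given in a fixed order of libraries, at 6 h the NFAM1+/+ pair before the NFAM1-/- pair and at 24 h libraries 43 to 46 and 55 to 58, and log2 differences with their SE. On GRCm38 the pyroptosis genes Casp1 (chromosome 9, 5298517 to 5307265) and Casp4 (chromosome 9, 5308828 to 5336783) are neighbours on the + strand, and Gsdmd is on chromosome 15 (75862327 to 75867408, + strand). Casp1 was 61.1, 69.2, 68.4 and 59.9 CPM in unstimulated and 470.1, 437, 457 and 461 CPM in stimulated libraries at 6 h. The groups were far apart and each was tight: 64.7 ± 4.84 CPM against 456 ± 14.2 CPM (SD, n = 4), a 7.07-fold difference (log2 2.82 ± 0.06 SE, adjusted p = 1.57e-17). At 24 h Casp1 was 59.1, 60.8, 58.2 and 65.5 CPM without and 307, 327, 322 and 321 CPM with stimulus, a 5.25-fold difference (log2 2.39 ± 0.06, adjusted p = 3.33e-16). The unstimulated libraries of the times overlapped, with a log2 difference of -0.09 (95% interval -0.20 to 0.03), while the stimulated level at 24 h was 70.0% of that at 6 h.

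Casp4, which encodes the cytosolic lipopolysaccharide receptor, had the largest response of the pyroptosis genes. It was 45.2, 50.6, 48.2 and 36.4 CPM without and 618, 572, 605 and 635 CPM with stimulus at 6 h, a 13.6-fold difference (log2 3.76 ± 0.08, adjusted p = 4.55e-17). At 24 h the values were 23.1, 25.7, 25.5 and 22.8 CPM against 417, 437, 445 and 415 CPM, a 17.7-fold difference (log2 4.14 ± 0.08, adjusted p = 6.07e-17). Both levels were lower at 24 h than at 6 h without overlap, the unstimulated one at 53.8% and the stimulated one at 70.6% of the 6 h level. The log2 difference of the responses was 0.38 ± 0.11 (adjusted p = 0.00729), and ran from 0.23 with libraries centred on their medians, where the adjusted p was 0.103, to 0.97 after quantile normalization.

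Gsdmd, the pore former on which both caspases converge, had the highest unstimulated level per kb of exon and was the only member whose stimulated level was higher at 24 h at the deposited scaling. It was 171, 182, 178 and 174 CPM without and 592, 538, 596 and 623 CPM with stimulus at 6 h, a 3.33-fold difference (log2 1.73 ± 0.05, adjusted p = 1.68e-15). At 24 h it was 176, 180.0, 169 and 169 CPM against 681, 674, 688 and 675 CPM, a 3.92-fold difference (log2 1.97 ± 0.05, adjusted p = 6.57e-16). The 4 stimulated libraries at 24 h lay above all 4 at 6 h, by a log2 difference of 0.21 ± 0.05 (adjusted p = 0.000772), which is below the 2-fold minimum of a call. Among the alternatives the adjusted p of this difference in limma reached 0.525.

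Among the necroptosis genes, Zbp1, which starts a route into RIPK3, and Mlkl, the last step, had the largest responses of all 8 at 6 h. The kinase genes Ripk1 and Ripk3 had the smallest at the deposited scaling. After quantile normalization Gsdmd (0.88) and Casp8 (0.92) came under the 2-fold minimum with Ripk3, and Ripk1 did not. Zbp1 (chromosome 2, 173206612 to 173218923, - strand) was 13.8, 15.8, 16.8 and 10.7 CPM without and 2212, 2167, 2179.6 and 2213 CPM with stimulus at 6 h, a 156-fold difference (log2 7.28 ± 0.13, adjusted p = 5.85e-18) that ranked 169 from the top of 12782 genes. It went from 2.03 to 3.02% of the summed level of the 8 genes in unstimulated libraries to 44.7 to 46.8% in stimulated ones. At 24 h Zbp1 was 29.6, 42.0, 25.5 and 28.2 CPM against 1192, 1159, 1190.1 and 1121 CPM, a 37.9-fold difference (log2 5.24 ± 0.13, adjusted p = 9.04e-16). The smaller response at 24 h came with a change on both sides, since the unstimulated level was higher (log2 1.13 ± 0.13, adjusted p = 1.39e-06) and the stimulated level lower (-0.91 ± 0.13, adjusted p = 7.92e-06) than at 6 h. The unstimulated rise passed the 2-fold minimum narrowly, and its log2 value was 0.996 without library 4, 0.978 without library 44 and 0.97 without the 4 libraries of disputed genotype.

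Ripk1, the kinase that joins the death-receptor complex, had one of the smaller responses. It was 56.0, 47.3, 54.1 and 57.0 CPM without and 131, 142, 143 and 141 CPM with stimulus at 6 h, a 2.61-fold difference (log2 1.38 ± 0.06, adjusted p = 3.85e-13). At 24 h it was 53.0, 50.5, 49.5 and 50.7 CPM against 94.3, 95.7, 98.6 and 99.4 CPM, a 1.90-fold difference (log2 0.93 ± 0.06, adjusted p = 1.3e-10) that misses the 2-fold minimum although the groups are far apart. Exons of Ripk1 (chromosome 13, 34002363 to 34037147, + strand, GRCm38) overlap exons of Gm17084 on the same strand and of Serpinb6a on the other, and the library kit does not keep the strand, so reads of the shared stretch cannot be told apart.

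Start regions from RefSeq on GRCm38.p6, running from 250 bases before to 50 bases after each start, were at hand for 6 of the 8 genes in 8 windows, and not for Gsdmd and Zbp1. They were searched on both strands for the letters TTCNNNGAA, the core of gamma-activated sites, and for GAAA, any 2 bases and GAAA again, the core bound by interferon regulatory factors; of all 32851 windows of this length, 8.30% hold the former and 3.44% the latter. Among the windows of the 8 genes only the second start of Ripk1 (chr13:34002624-34002923, + strand) held either, with the former at bases -108 and -11 and the latter at base -5, where it overlaps the match at -11. That window is shown because it alone holds matches, and the window of Mlkl (chr8:111338156-111338455, - strand) because Mlkl has the largest response among the genes with a window; both run 5′ to 3′ and capitals mark the matches.
Ripk1: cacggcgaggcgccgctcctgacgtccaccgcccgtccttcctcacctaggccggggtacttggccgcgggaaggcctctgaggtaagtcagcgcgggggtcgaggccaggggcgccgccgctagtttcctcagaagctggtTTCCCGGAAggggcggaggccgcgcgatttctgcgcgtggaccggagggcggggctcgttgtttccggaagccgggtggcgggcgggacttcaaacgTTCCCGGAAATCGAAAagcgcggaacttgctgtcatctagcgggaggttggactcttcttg
Mlkl: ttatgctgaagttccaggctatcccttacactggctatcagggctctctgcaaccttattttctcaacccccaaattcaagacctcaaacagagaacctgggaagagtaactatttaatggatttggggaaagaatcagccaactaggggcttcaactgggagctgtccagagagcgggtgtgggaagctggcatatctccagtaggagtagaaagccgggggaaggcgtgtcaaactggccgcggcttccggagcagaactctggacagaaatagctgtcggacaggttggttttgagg
The windows of Casp1, Casp4, Casp8, Ripk3, Mlkl and the first start of Ripk1 do not hold these letters, which says nothing about binding elsewhere.

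Ripk3 is the kinase that both routes into necroptosis share, and its response was larger at 24 h than at 6 h. Ripk3 (chromosome 14, 55784995 to 55788865, - strand) was 45.1, 48.2, 41.8 and 48.4 CPM without and 80.6, 93.8, 104 and 130.1 CPM with stimulus at 6 h, a 2.20-fold difference (log2 1.14 ± 0.11, adjusted p = 5.43e-08). At 24 h it was 14.7, 18.2, 16.8 and 16.1 CPM against 75.9, 89.0, 76.8 and 80.6 CPM, a 4.91-fold difference (log2 2.29 ± 0.11, adjusted p = 5.36e-12). The unstimulated level at 24 h was 35.8% of that at 6 h (log2 -1.48 ± 0.11, adjusted p = 6.12e-09), and the stimulated level 78.8% (-0.32 ± 0.11, adjusted p = 0.0145), where the values of the times overlap. Ripk3 was the only member called as responding more at 24 h than at 6 h, by a log2 difference of 1.16 ± 0.16 (adjusted p = 6.08e-06).

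Mlkl, the executioner (chromosome 8, 111311797 to 111338177, - strand), was 11.8, 14.2, 18.3 and 16.1 CPM without and 344, 309, 309 and 329 CPM with stimulus at 6 h, a 21.6-fold difference (log2 4.43 ± 0.10, adjusted p = 5.26e-17). At 24 h it was 13.9, 15.5, 14 and 13.9 CPM against 137, 133, 133 and 143 CPM, a 9.54-fold difference (log2 3.25 ± 0.10, adjusted p = 6.88e-15). Its unstimulated levels overlapped between times, and its stimulated level at 24 h was 42.3% of that at 6 h (log2 -1.24 ± 0.10, adjusted p = 3.16e-09).

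Casp8, the brake on necroptosis (chromosome 1, 58795374 to 58847503, + strand), was 112, 125, 132 and 126 CPM without and 406, 369, 380.5 and 415 CPM with stimulus at 6 h, a 3.17-fold difference (log2 1.67 ± 0.07, adjusted p = 4.88e-13). At 24 h it was 98.9, 95.3, 83.9 and 95.6 CPM against 151, 138, 139 and 164 CPM, a 1.58-fold difference (log2 0.66 ± 0.07, adjusted p = 1.78e-07) below the 2-fold minimum. At both times the groups were apart. Of the 8 genes Casp8 kept the least of its stimulated level, 37.7% at 24 h (log2 -1.41 ± 0.07, adjusted p = 1.22e-11).

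**Figure D2:**
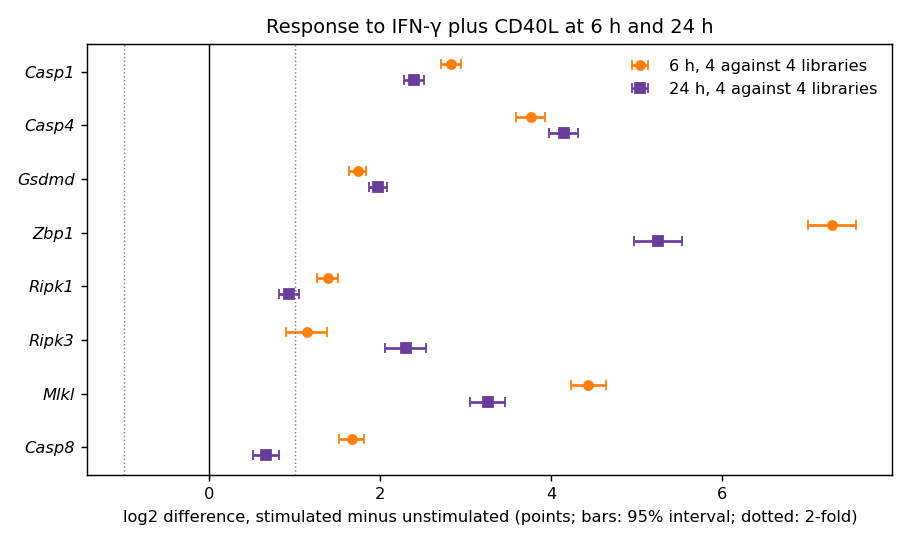
Log2 difference between stimulated and unstimulated libraries (x axis) for the 8 genes at 6 h (circles) and 24 h (squares), with 95% intervals from limma; dotted lines mark a 2-fold difference. The response of Zbp1 went from 7.28 to 5.24 and that of Mlkl from 4.43 to 3.25, while that of Ripk3 went from 1.14 to 2.29.

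How the members moved between 6 and 24 h differed by gene. Without stimulus, Ripk3 was called lower and Zbp1 higher, where 7.70% of all genes were called lower and 13.2% higher. The times did not overlap for these and for Casp4 (-0.88, adjusted p = 6.68e-08) and Casp8 (-0.41, adjusted p = 8.37e-05), which were lower by less than 2-fold, 4 of 8 members against 58.8% of all genes. With stimulus, Casp8 and Mlkl were called lower, against 17% of all genes, and no member was called higher, against 16.4%. There the times did not overlap for 7 of 8 members, all but Ripk3, and for 67.9% of all genes. Cells collected at 24 h and at 6 h are separate sets of libraries, and time and any difference in handling between the sets cannot be told apart. The summed neutrophil markers were 72.9 to 229 CPM at 6 h and 544 to 942 CPM at 24 h without stimulus, and the summed dendritic cell markers 28.0 to 38.7 and 85.2 to 176 CPM. Most of the latter sum was Flt3 (19.5 to 29.7 and 67.3 to 145 CPM). Siglech was also higher at 24 h, Zbtb46 overlapped, and Xcr1 was lower (0.774 to 1.31 and 0.298 to 0.708 CPM). The listed B cell markers summed to 4.33 to 4.79 and 6.54 to 17.4 CPM, and those of T and NK cells to 0.548 to 1.39 and 4.19 to 6.81 CPM. With stimulus the summed neutrophil and dendritic cell markers overlapped between times. The part of these markers in the differences was not tested. The difference between the responses at 24 h and 6 h had an adjusted p under 0.05 for all 8 genes, as for 64.7% of all genes, and passed the 2-fold minimum for Casp8 (-1.0), Mlkl (-1.18) and Zbp1 (-2.04), called lower with 18.1% of all genes, and for Ripk3, called higher with 13.2%. The value for Casp8 lies on the threshold: leaving out a library gave -1.06 to -0.96, and the call was kept in 8 of 16 such fits. Under other scalings the adjusted p of this difference exceeded 0.05 for Casp1 (up to 0.722), Ripk1 (0.602), Gsdmd (0.36) and Casp4 (0.103), and stayed below it for the other 4.

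**Figure D3:**
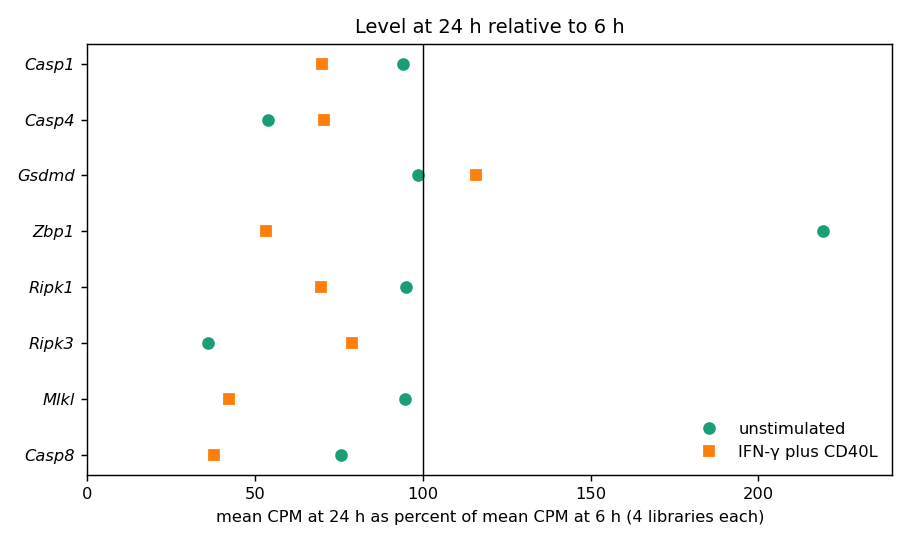
Mean CPM at 24 h as a percentage of mean CPM at 6 h (x axis, 4 libraries each), without stimulus (circles) and with IFN-γ plus CD40L (squares); the line marks 100%. With stimulus the genes run from 37.7% for Casp8 to 116% for Gsdmd, and without stimulus from 35.8% for Ripk3 to 219% for Zbp1.

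The size of these differences rests on the scaling of the libraries. A library's reads divided by the scaled size behind its deposited values gave 0.756 to 0.775 without and 1.24 to 1.32 with stimulus at 6 h, and 0.776 to 0.788 without and 0.97 to 0.997 with it at 24 h. With every library brought to its own read total instead, the median gene differed by -0.86 on the log2 scale with stimulus at 6 h, all 8 members were still higher, and Casp8 (0.93), Ripk1 (0.65) and Ripk3 (0.41) came under the 2-fold minimum. Quantile normalization, with a median gene of -0.23, likewise left all 8 higher and put Casp8 (0.92), Gsdmd (0.88) and Ripk3 (0.86) under it. The direction between times with stimulus depended on the scaling for 3 members: Casp1 and Casp4 were higher at 24 h by 0.015 and 0.022 after quantile normalization, and Ripk3 by 0.049 at own totals, where the median gene was 0.41 higher. Casp8 and Mlkl were lower at 24 h with stimulus under all 3 other scalings tried, though Mlkl came under the 2-fold minimum at own totals (-0.87) and after quantile normalization (-0.78), as did Casp8 after the latter (-0.90). Gsdmd was higher under all 3, from 0.037 with libraries centred on their medians to 0.67. Its adjusted p in limma reached 0.525 among the alternatives, so its rise did not hold below 0.05 in all of them.

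**Figure D4:**
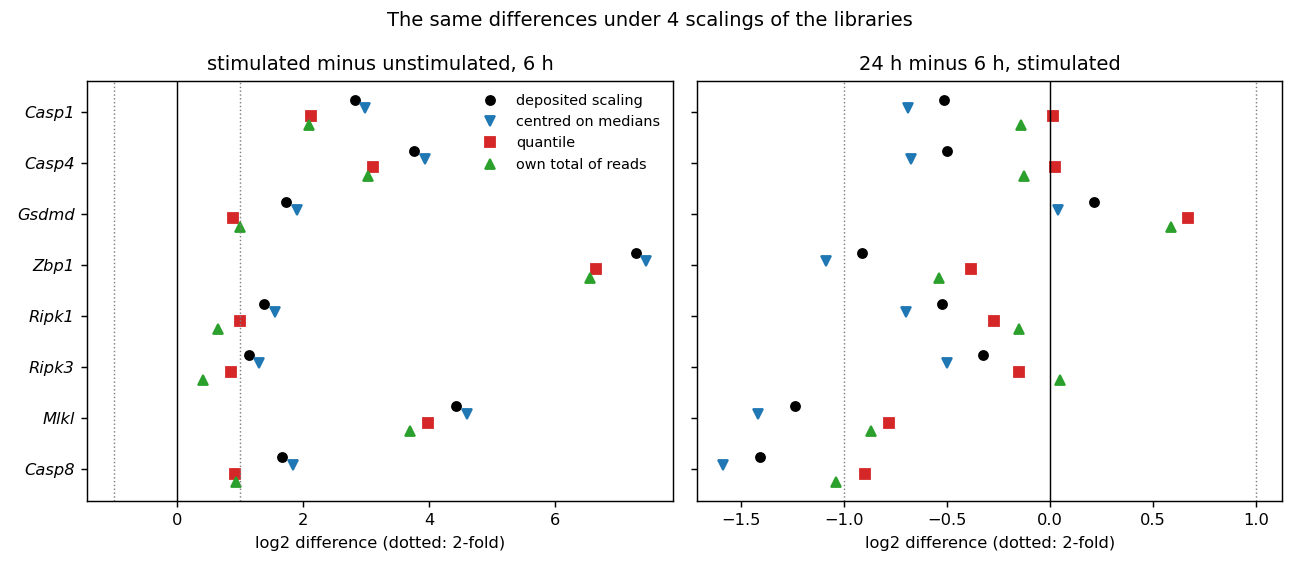
Log2 difference for the 8 genes (x axis) between stimulated and unstimulated libraries at 6 h (left) and between 24 h and 6 h with stimulus (right), under the deposited scaling and 3 others; dotted lines mark a 2-fold difference. At 6 h all points lie above 0, and for Ripk3 they run from 0.41 to 1.31; in the right panel Casp1, Casp4 and Ripk3 have points on both sides of 0.

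Levels were compared between genes after division by the length of their exons in GENCODE vM21. Without stimulus at 6 h Gsdmd led with 74.1 ± 2.02 CPM per kb (SD, n = 4), followed by Casp1 (43.2 ± 3.23) and Casp8 (42.8 ± 2.91), whose values overlap. Ripk3 (20 ± 1.35) and Casp4 (12.2 ± 1.67) came next. Mlkl (6.56 ± 1.19) and Ripk1 (6.42 ± 0.527) overlap, and Zbp1 (4.05 ± 0.762) was last. With stimulus at 6 h Zbp1 led with 621 ± 6.60 CPM per kb, ahead of Casp1 (305 ± 9.47), Gsdmd (247 ± 15) and Casp4 (164 ± 7.21). Mlkl (140.1 ± 7.31) and Casp8 (136 ± 7.45) overlap, and Ripk3 (44.6 ± 9.16) and Ripk1 (16.7 ± 0.664) closed the order. The place of Casp4 depends on the length used, because its exons span 3710 bases in all and its longest coding transcript 1435. Per kb of the latter Casp4 stood second with stimulus at 6 h, at 423, above Gsdmd (328) and Casp1 (305). Without stimulus at 6 h it stood above Ripk3 (31.4 against 23.4), Casp8 above Casp1 (47.9 against 43.2) and Ripk1 above Mlkl (8.28 against 7.54). At 24 h with stimulus Zbp1 (330.2 ± 9.50) and Gsdmd (286 ± 2.79) led, and Ripk1 (11.6 ± 0.290) was again last.

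Genotype was compared at 6 h, where both labels name the same genotype, to ask whether NFAM1 affects these genes. None of the 8 members was called by limma with or without stimulus, where 0.0661% of genes (8 of 12111) were called without and 0.0330% (4) with stimulus. Unadjusted p-values below 0.05 were found for 1058 genes without and 1522 with stimulus, and for 1 member in each, Mlkl and Ripk3. Without stimulus Mlkl was 11.8 and 14.2 CPM in NFAM1+/+ and 18.3 and 16.1 CPM in NFAM1-/- libraries, a log2 difference of 0.41 (95% interval 0.16 to 0.65) with an adjusted p = 0.277 in limma. For Mlkl and Casp8 both NFAM1-/- libraries lay above both others, as they did for 21.9% of all genes. With stimulus Mlkl differed by -0.03 (-0.28 to 0.22).

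With stimulus the member with the largest difference was Ripk3, at 80.6 and 93.8 CPM in NFAM1+/+ and 104 and 130.1 CPM in NFAM1-/- libraries. The log2 difference was 0.42 (0.14 to 0.71, adjusted p = 0.329 in limma). Leaving out a library gave 0.26 without library 12, the highest, to 0.58 without library 11. Without library 10, the NFAM1+/+ side is library 26 alone, which has the lowest value (80.6 CPM). Over all genes library 26 was the least like the rest of this group. Its chi-square per degree of freedom against counting noise was 69.8 to 114 with libraries 10, 11 and 12. Among those libraries it was 19.0 to 28.8, also between the genotypes. For Ripk3 and Gsdmd both NFAM1-/- libraries lay above both others, as they did for 24% of all genes. Gsdmd differed by 0.11 (-0.06 to 0.28) and the other 6 members by -0.03 to 0.06. The intervals of all 16 differences lay within 2-fold, the one that reached farthest from 0 being that of Ripk3 with stimulus, with 2 libraries per group.

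**Figure D5:**
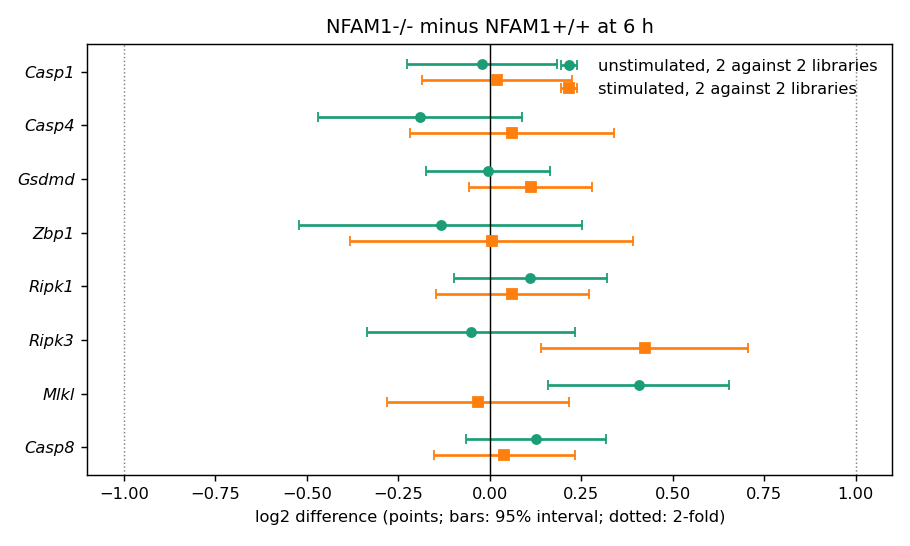
Log2 difference between NFAM1-/- and NFAM1+/+ libraries at 6 h (x axis) for the 8 genes without stimulus (circles) and with IFN-γ plus CD40L (squares), with 95% intervals from limma (2 against 2 libraries); dotted lines mark a 2-fold difference. Mlkl without stimulus (0.41) and Ripk3 with it (0.42) lie farthest from 0, and no interval reaches 2-fold.

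With stimulus at 6 h, 7 of 8 members were called higher in NFAM1+/+ libraries, against 19.6% of all genes, and 8 of 8 in NFAM1-/- libraries, against 18.8%. The log2 response was 2.80 in NFAM1+/+ and 2.84 in NFAM1-/- for Casp1, 3.63 and 3.89 for Casp4, and 7.21 and 7.35 for Zbp1. For Ripk3 it was 0.90 in NFAM1+/+, under the 2-fold minimum, and 1.37 in NFAM1-/-, and for Mlkl 4.65 and 4.21. In the test of the difference between the responses, Ripk3 (0.47, adjusted p = 0.71) and Mlkl (-0.44, adjusted p = 0.71) did not pass. By limma no gene of 12111 was called there (0%), although 846 had an unadjusted p below 0.05; the lowest adjusted p was 0.209. At 24 h the single libraries whose labels name 1 genotype (43 and 45 without, 55 and 57 with stimulus) differed, NFAM1-/- minus NFAM1+/+, by -0.19 to 0.24 without stimulus and by -0.09 to 0.11 with it on the log2 scale, with no replicate check. Grouped by title or by tag, 2 libraries a genotype, none of the 8 members was called at 24 h. By title 27 of 12164 genes were called without and 14 with stimulus, and by tag 1 and 0. Unadjusted p-values below 0.05 in limma were found for 1455 and 2163 genes by title, and for 233 and 342 by tag.

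Genes around the 8 were read from lists of the pathways. Of 13 inflammasome sensors and adaptors tested, 5 were called higher and 1 lower with stimulus at 6 h, and 2 higher and 3 lower at 24 h, with medians of 0.42 and -0.50. Of all genes tested, 19.0% were called higher and 20.5% lower at 6 h, and 14.6% and 18.7% at 24 h, with medians of -0.13 and 0.01. Nod2, a sensor of bacterial muramyl dipeptide, rose by 3.28 on the log2 scale at 6 h (27 to 264 CPM) and Nlrp1b by 2.46 (15.7 to 86.0 CPM). Pycard, the adaptor ASC that links sensors to caspase-1, had the smallest called rise, 1.16 (18.6 to 41.7 CPM). Naip1, a sensor of bacterial secretion needles, fell by 5.41 (8.98 to 0.218 CPM), and as one of a family of near copies its reads may be shared with others. At 24 h Nod2 (2.84) and Aim2 (1.31), a sensor of cytosolic DNA, were called higher and Naip1 (-2.03) and Naip6 (-1.02) lower. Nlrp3, named after its values were seen, rose by 1.28 at 6 h (209 to 518 CPM) and was -0.50 at 24 h (333 to 237 CPM).

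Of 10 other caspases, gasdermins and pore partners tested, 5 were called higher and 3 lower at 6 h, and 3 higher and 2 lower at 24 h, where the shares over all genes were 19.0% higher and 20.5% lower at 6 h and 14.6% and 18.7% at 24 h. Il18, a cytokine that caspase-1 matures, rose by 3.07 (12.1 to 99.8 CPM) at 6 h. Casp12 went from 0.0593 to 1.73 CPM, near the limit of detection without stimulus. The smallest called rise was that of Casp2, 1.08 (57.9 to 123 CPM). At 24 h Gsdme, a gasdermin cut by caspase-3, fell by 2.96, and Ninj1, whose product ruptures the membrane after the pores form, had the smallest called rise, 1.02.

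Of 26 genes of the death-receptor complex and its brakes, 14 were called higher at 6 h and 9 at 24 h, and none lower, with medians of 1.13 and 0.82, against 19.0% and 14.6% of all genes called higher and 20.5% and 18.7% lower. The lowest value, -0.86 at 6 h, did not pass the 2-fold minimum. The largest rises at 6 h were those of brakes: Tnfaip3 (A20) by 2.83 (197 to 1393 CPM), Cflar, whose product cFLIP pairs with caspase-8, by 2.67 (193 to 1224 CPM) and Rnf31, a ligase of linear ubiquitin chains, by 2.12 (43.9 to 190.2 CPM). Cflar was higher at 24 h too, by 2.62 (115 to 703 CPM), where Casp8 had 0.66. The largest rise at 24 h was that of the death receptor gene Fas, 2.65 (27.2 to 169 CPM), and the smallest called one that of the kinase gene Tbk1, 1.46.

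Of 13 genes on the routes into RIPK3 and in membrane repair after MLKL, 5 were called higher at each time and none lower, against the same shares of all genes. Tlr3, a receptor of double-stranded RNA, rose by 7.44 at 6 h (0.317 to 48.9 CPM), the ubiquitin ligase gene Peli1 by 3.51 (33.6 to 380.5 CPM) and Adar, whose product edits the RNA that ZBP1 can sense, by 2.93 (81.1 to 618 CPM). Tlr4 had the smallest called rise, 1.34 (13 to 32.1 CPM). At 24 h the rises were 3.10 for Tlr3, 1.35 for Adar and 1.31 for Peli1, and the smallest called one was 1.17, for the phosphatase gene Pgam5.

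The genes whose log2 values ran closest to each member over the 16 libraries were ranked by Pearson's r among 12782 genes, as a description in which the 16 values are 4 groups and r mainly follows the group means. Zbp1 ran closest to Ube2l6 (r = 0.999) and Isg15 (0.998), the conjugating enzyme and the protein of the interferon-induced ISG15 system. Casp4 ran closest to Cd40 (0.999), the receptor of the ligand given, and Dram1 (0.997), and Mlkl to Mov10 (0.997) and Nmi (0.997). Gsdmd ran closest to H2-T22 and Pla2g4a (both 0.996), Casp1 to 1110038F14Rik (0.999) and Tmem128 (0.998), and Casp8 to Nono (0.997) and Atp11b (0.996). Ripk1 ran closest to Creb3 (0.995) and Cish (0.994). Ripk3 had the lowest best match, with Rnaseh2b and Med27 (both 0.98).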

How the data were processed

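RNA of 16 libraries was measured by sequencing on an Illumina HiSeq2000 after a poly-A, non-stranded preparation. The authors aligned reads with STAR, counted them with Rsubread and deposited log2 CPM for 13085 genes. The submitters' processing notes name FastQC, STAR, edgeR, limma and the build GRCm39 (mm39); tool versions and the filter on low counts are not given in the sources used here. The deposited log2 values fit whole reads with 0.5 added, divided by a library's scaled size (tolerance 0.05 reads), so reads and depth were recovered from them; a raw count table was not used here. Libraries of a group differed by more than counting noise (chi-square per degree of freedom 19.0 to 175), so no library appears to be listed as a repeat of another, which does not tell separate mice from repeat cultures. As listed, 17 symbols appear as dates and 1 is listed more than once; none is a gene named here.

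The 16 libraries were fitted in 4 groups of 4 by stimulus and time, and the 8 libraries at 6 h in 4 groups of 2 by genotype and stimulus, with limma 3.58.1 (statmod 1.5.0) in R 4.3.3 on the deposited values, and the prior variance was given a trend. A gene entered if 2 or more libraries of the fit reached 1 CPM, and calls needed a fold change of at least 2 and an adjusted p under 0.05 over all genes tested. SE and 95% intervals are limma's. The fits were tested on simulated counts, in which all 50 genes changed 4-fold were called, both for stimulus at 6 h (11941 genes) and for genotype without stimulus (11673 genes). The simulated spread was set alike for all genes and was not taken from these libraries. The outcome therefore checks the code and does not show how well smaller differences are detected here. Members, lists and tests were chosen with earlier results of these data known, and p-values are adjusted over all genes, not over the list. The genes named are the 8 members, in each list the called genes with the 3 largest and the smallest differences, and the 2 genes most like each member, except that 1 gene of a list is not reported here. Gene positions and lengths are from GENCODE vM21 (GRCm38), windows from RefSeq (GRCm38.p6), and their positions were not set against the authors' build. Labels and methods give IFN-γ at unlike doses. The protocol text in the labels also describes human cells, while all 16 libraries are labelled as mouse. Alternatives were the filter, 3 other scalings, voom weights, the prior, the fold minimum, genotype as a term, fewer libraries and leaving out each library. A fit without the 4 libraries of disputed genotype and the length of the longest coding transcript were added after the values were seen.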

Additional observations from a re-analysis of the deposited data

Results flagged for a closer look

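The stimulus response differed between 24 h and 6 h by the limma test of the difference itself for all 8 genes. The log2 differences (24 h minus 6 h) were -2.04 for Zbp1, -1.18 for Mlkl, -1.0 for Casp8, -0.45 for Ripk1 and -0.43 for Casp1, and 0.24 for Gsdmd, 0.38 for Casp4 and 1.16 for Ripk3. Of all genes tested, 64.7% had an adjusted p under 0.05 in this test. Without stimulus the summed neutrophil, dendritic cell and monocyte markers were higher at 24 h than at 6 h without overlap. With stimulus each of these sums overlapped between times. Their part was not tested. Under other scalings 4 of the 8 lost an adjusted p below 0.05: Casp1 (0.077 after quantile normalization), Ripk1 (-0.056 at own read totals), Gsdmd (0.079 centred on medians) and Casp4 (0.23 centred on medians).

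Among the unstimulated libraries at 24 h, Mlkl in library 44 (15.5 CPM) stood apart from the other three (13.9, 14 and 13.9 CPM), with a gap of 0.948 of the group's range on the log2 scale. This passed Dixon's 95% critical value, and chance flags about 1 in 20 of groups examined (32 here). Zbp1 was also highest in that library (42.0 CPM), and the labels of library 44 disagree on its genotype.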

How the results depend on the processing

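All 8 members were higher with stimulus at both times under every alternative run. By the 2-fold rule, members called higher at 6 h went from 8 to 5 at own read totals and 5 after quantile normalization. Of all 12782 genes, 2433 were called higher there, 1565 at own totals and 2170 after quantile normalization. Members called between times without stimulus (2) were 1 or 2 when a library was left out (1 without library 4 or 44, where Zbp1 lost its call), 1 without the disputed libraries, an alternative chosen after seeing the data, and 4 with no minimum fold. Over all genes, 2665 were called there, 2556 to 2738 when a library was left out and 7887 with no minimum fold. Without the disputed libraries, 2486 of 12620 genes were called. With stimulus, members called between times went from 2 to 1 at own totals, 0 after quantile normalization and 8 with no minimum fold. Of all 12782 genes, 4277 were called there, 4890 at own totals, 3897 after quantile normalization and 9502 with no minimum fold. For the response at 24 h against 6 h, members called went from 4 to 2 at own totals, 2 after quantile normalization and 8 with no minimum fold. Genes called there were 4000, and 4782, 3791 and 8264 under these alternatives in the same order. No alternative called a member by genotype.

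Genes called (5056, 4245, 2665, 4277 and 4000 for stimulus at 6 h and 24 h, time without and with stimulus, and the response) were 3275, 2554, 1443, 2743 and 2653 with a mean of at least 5 CPM, where fewer genes are tested, and 9823, 9368, 7887, 9502 and 8264 with no minimum fold. Genes called by genotype without stimulus (8) were 5 with that mean, 4 with voom weights, 3 with no trend, 19 with no minimum fold and 1 with a common genotype effect, and 0 to 22 leaving out a library (0 without library 4, 22 without 2, 15 without 3, 1 without 11 or 12). With stimulus (4) they were 1 with that mean, 2 centred on medians, 0 with voom weights or no trend, 2 with only the libraries compared and 1 with a common effect, and 0 to 135 leaving out a library (135 without library 10). For the difference of the responses they were 0 to 68 (68 without library 10). In the fits that leave 1 library in a group, that library is assumed to vary like the others. The cause of these changes was not tested.

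Scaling moved the share of calls that were higher from 48.1% to 22.0% at own totals for stimulus at 6 h, from 43.8% to 30.4% at 24 h, from 49.1% to 69.3% for time with stimulus and from 42.2% to 67.6% for the response. The median gene moved from -0.13 to -0.86, 0.01 to -0.33, 0.04 to 0.41 and 0.04 to 0.44 in these comparisons.

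Signs turned for small differences. After quantile normalization Gsdmd between times without stimulus was 0.037, Casp1 and Casp4 with stimulus 0.015 and 0.022, and the response of Casp1 0.077. Ripk3 between times with stimulus was 0.049 at own totals. By genotype without stimulus Gsdmd was 0.011 at own totals, 0.013 after quantile normalization and 0.053 with a common effect, and Ripk3 0.19 with a common effect. With stimulus Casp1 was -0.0074 and Zbp1 -0.022 centred on medians, and with a common effect Casp1 was -0.0015, Casp4 -0.066, Mlkl 0.19 and Zbp1 -0.065. Leaving out a library, Mlkl between times without stimulus ran from -0.17 to 0.036. The genotype difference without stimulus ran from -0.12 to 0.074 for Casp1, -0.39 to 0.012 for Casp4, -0.050 to 0.039 for Gsdmd, -0.012 to 0.23 for Ripk1, -0.16 to 0.053 for Ripk3 and -0.46 to 0.19 for Zbp1. With stimulus it ran from -0.034 to 0.073 for Casp1, -0.030 to 0.11 for Casp8, -0.11 to 0.044 for Mlkl and -0.011 to 0.019 for Zbp1. The difference of the responses ran from -0.054 to 0.14 for Casp1, -0.17 to 0.073 for Ripk1 and -0.19 to 0.46 for Zbp1. At 24 h the median genotype difference of the 8 without stimulus was 0.039 between single libraries and -0.050 by title. Over all alternatives, 1532 member values kept direction and side of the threshold, 25 lost a call, 15 gained one, 37 turned sign and 15 others moved.

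No paired analysis was possible because there is no map from mice to libraries. The library numbers, each used once, do not tell which libraries share a mouse. Depth does not limit the members, which had at least 887 reads, but 2 libraries a genotype and 4 disputed libraries do.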
